A study of Mus musculus with 9 samples.

Results

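The 300 genes with the brightest polysomal mRNA signal in the mouse egg arrested at metaphase II (MII) are described, out of 18193 genes measured. Each gene was represented by its brightest probe set with a single gene symbol, the genes were ranked by their mean intensity over the 3 MII arrays, and the first 300, or 1.65% of all, were taken. No comparison with another stage entered this choice. The signal comes from mRNA bound to polysomes, the chains of ribosomes on messages that are being translated. It was measured on Affymetrix whole-genome mouse arrays, on which a probe set is a group of short probes for 1 transcript.

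The study collected oocytes at 3 stages, with 3 arrays each from sample sets that the labels call biological replicates. All mice received PMSG, a gonadotropin that makes follicles grow. Samples are timed from hCG, a gonadotropin that starts ovulation, set at 48 h after PMSG, so those at 0 h had no time under hCG. Oocytes were taken at the germinal vesicle (GV) stage, arrested in prophase, at 0 h of hCG, at metaphase I (MI) at 4 h and at MII at 14 h. The descriptions of the MI samples carry the code pGVB, while their titles and stage fields give MI. The labels name no strain, age or number of mice or oocytes per array, and nothing says whether oocytes of several mice were pooled.

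A fully grown mouse oocyte stops transcribing before it matures, so the proteins of the egg are made from stored maternal mRNA until the embryonic genome becomes active. Stored mRNAs with short poly(A) tails are recruited to ribosomes when the tail is lengthened, and others leave polysomes and are degraded. The ovulated egg waits at MII with a spindle, active cyclin-dependent kinase and an inhibited anaphase-promoting complex until the sperm restarts the cell cycle.

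An intensity here reflects how much of an mRNA was bound to polysomes, and amount and ribosome loading of an mRNA cannot be told apart. It also depends on how well a probe set binds and on the amplification, so the ranks order array signals and not numbers of mRNA molecules, and there is no scale per length of transcript. Series of 3 intensities below are those of arrays MII 1, MII 2 and MII 3 in that order, and values with ± are means and SD of 3 arrays. The arrays had medians of 12.6 to 13.2 at MII and highest values of 19591 to 21038, which belonged to control probe sets. Precision is limited by having 3 arrays.

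The label of the samples was checked against marker genes. All 12 oocyte markers measured exceeded an intensity of 100 on average at MII, 7 of them were among the 300 genes, and their summed signal was 41643 to 49968 per array. Of 14 granulosa, cumulus and theca cell markers 1 exceeded 100, the steroid-synthesis gene Cyp11a1 at 394, 19.5 and 75.3, and the sum of the list was 288 to 639 per array. Of 7 blood, immune and endothelial markers 1 exceeded 100, the endothelial adhesion gene Pecam1 at 569, 627 and 785, and the list summed to 618 to 886. The follicle-cell list had a median intensity of 14.0, near the median of the arrays.

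The first gene had a mean intensity of 10881, rank 30 stood at 7179, rank 100 at 4813 and rank 300 at 3174, a span of 3.43-fold from first to last. The median of the 300 genes was 4213, against 39.5 for all genes. Together they held 23.2%, 23.8% and 25.2% of the summed gene signal on arrays MII 1, 2 and 3. The boundary lies in a dense region of the ranking, where the helicase gene Ddx5 was the last inside at 3174 and Nipsnap2 the first outside at 3168. Mcm4, with 3187 ± 1590.2, and A430033K04Rik, with 3192 ± 780.3, came just before Ddx5, and Dbf4, with 3155 ± 665, and Atl1, with 3155 ± 773, just after Nipsnap2.

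Of the first 30 genes, 10 are genes known chiefly from the oocyte or the germ line, and several classes share the other places. Obox2, an oocyte homeobox gene, was first at 10578, 10906 and 11158. Spin1, which reads methylated histone tails and is abundant in oocytes, followed at 10791, 10811 and 10472. Btg4, an adaptor that brings the CCR4-NOT deadenylase to maternal mRNA, came next at 9987, 10438 and 10060.4. The arrays differed little for these 3 genes. Bpgm, an enzyme of a side branch of glycolysis, measured 8403, 9091 and 12433, and the histone-binding gene Rbbp7 measured 10264, 9738 and 9056. The Akt cofactor gene Tcl1 gave 8107, 9549 and 9849.8. Array MII 3 was the highest for Bpgm and the lowest for Rbbp7, and MII 1 was the lowest for Tcl1. Across the first 30 genes the median coefficient of variation was 8.21%, and 29 of the 30 were among the 300 brightest genes of each MII array taken alone. The exception was Ddit4, a stress-induced inhibitor of mTOR signalling, with 15683, 4907 and 3109.9 and a coefficient of variation of 86.1%, against 28% for the next most variable of the 30. Its place at rank 20 rests on array MII 1.

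**Figure D1:**
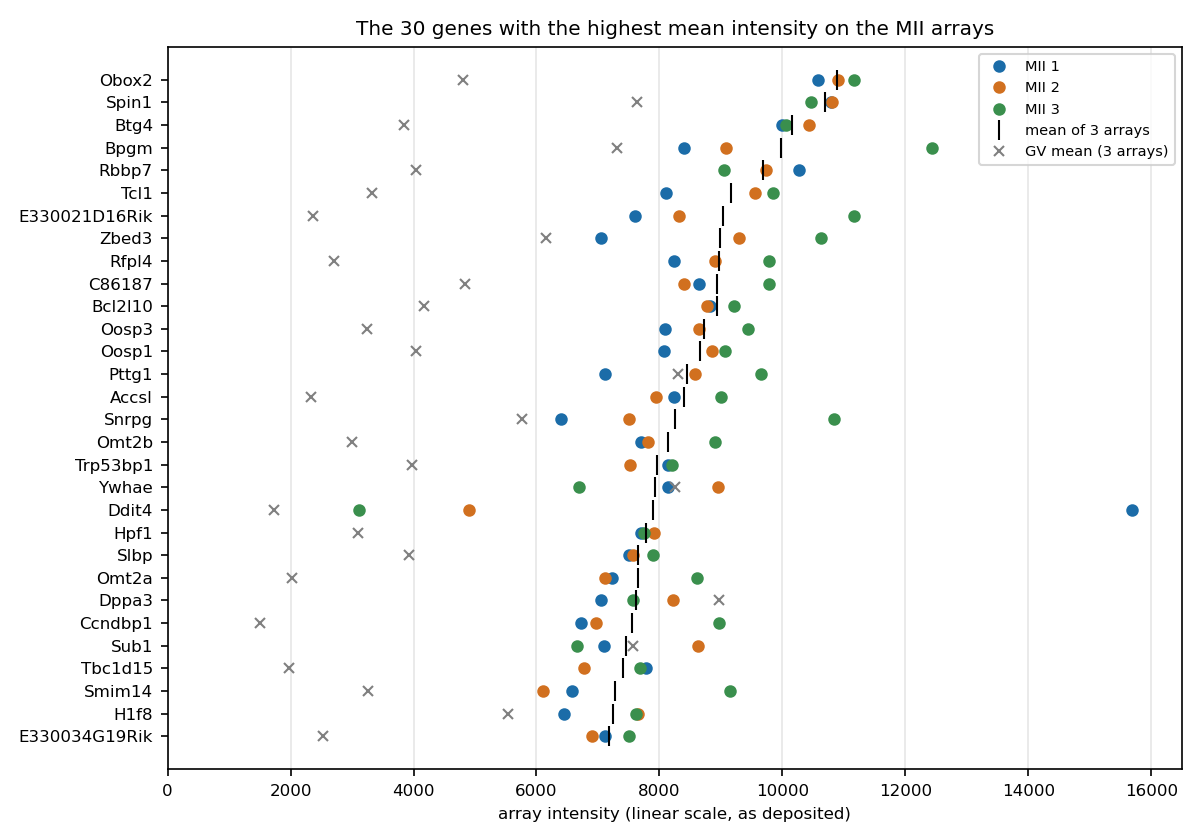
Intensity of the 30 brightest genes on each of the 3 MII arrays, as coloured points, with a tick for their mean and a grey cross for the mean of the 3 GV arrays, on a linear axis that starts at 0. The MII points of Obox2, Spin1 and Btg4 lie close together, and those of Ddit4 spread from 3110 to 15683.

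The 300 genes were sorted by hand into 13 functional classes from general knowledge after the ranking was known, and 31 stayed unassigned. The largest class was chromatin and transcription with 37 genes, ahead of oocyte and germ-line genes with 29, metabolism with 27, ubiquitin and protein degradation with 26, and cytoplasmic mRNA control and translation with 25. Signalling and cell survival also had 25, cytoskeleton and cell surface 22, the secretory pathway 21, splicing and nuclear RNA 19, cell division 18, and DNA replication and repair 10. Protein folding and the nuclear pore had 5 each. The oocyte class had the highest median intensity, 6489, against 3712 for the secretory pathway class, and 17 of its 29 genes were among the first 100. These counts describe the ranking, and no test was made of a class.

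**Figure D2:**
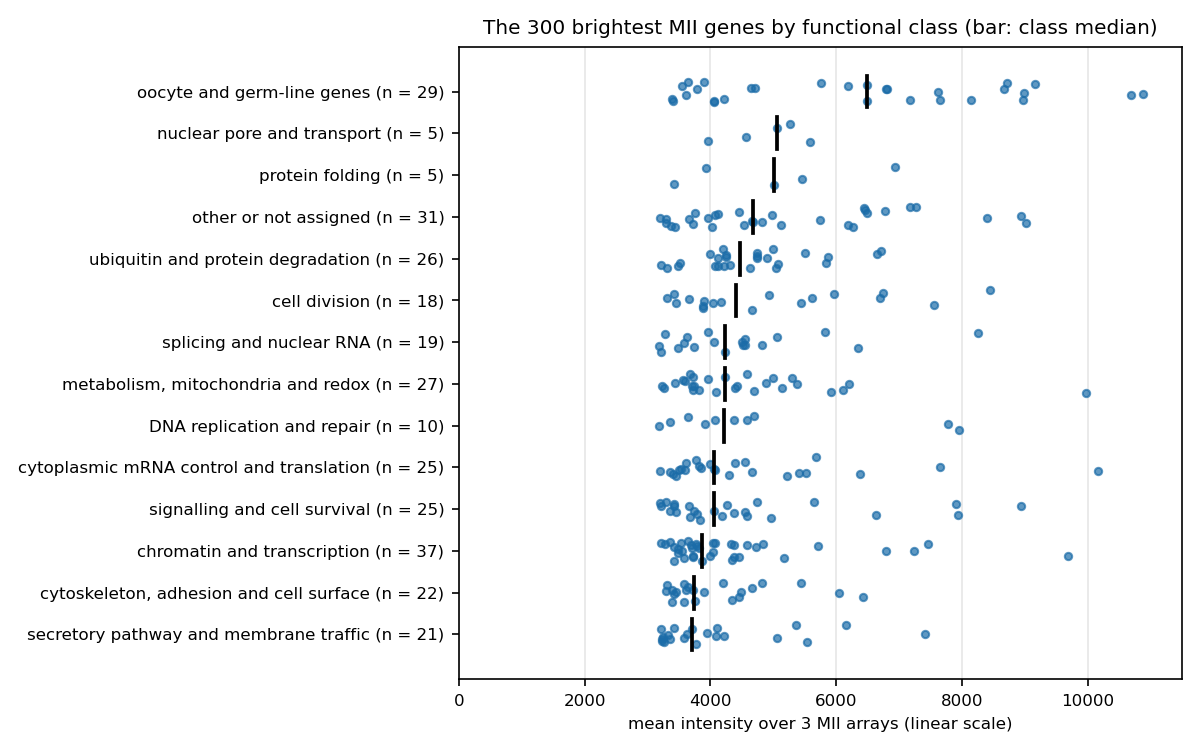
Mean MII intensity of each of the 300 genes by functional class, 1 point per gene, with a bar for the class median. Points are spread vertically so that they can be seen. Oocyte and germ-line genes have the highest median, 6489, and the chromatin class has the most genes, 37.

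Small gene families made up much of the oocyte and germ-line class. All 4 measured members of the Tcl1 family, relatives of the Akt-binding protein TCL1, were among the 300. Tcl1b1 gave 6887, 7680.3 and 6968, Tcl1b3 gave 5994, 7799 and 6594 and Tcl1b4 gave 4539, 4879 and 4521, beside Tcl1 at rank 6. The probe sets of Tcl1b1 and Tcl1b3 are of a type whose probes can bind other transcripts too, so these signals may overlap. Both members of the Omt2 pair, oocyte maturation transcripts of poorly known function, were present, Omt2b at 7707, 7809 and 8908 and Omt2a at 7231, 7123 and 8612. For both Omt2 genes array MII 3 was the highest. Of 3 Oosp genes, which encode oocyte-secreted proteins, Oosp3 gave 8084, 8641 and 9448 and Oosp1 gave 8072, 8849 and 9069, whereas Oosp2 stood at rank 929 with 2348, 1646 and 1028. The family was thus uneven, and Oosp2 differed by more than 2-fold between arrays.

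The promoters of the Tcl1 family are shown because the probe sets of all 4 genes were bright and 3 of the promoters share a spacing of a short motif. Each is the RefSeq sequence of assembly GRCm38.p6 from 250 bases before to 50 bases after the annotated start, written on the gene's strand. Capitals mark every CANNTG, the E-box that basic helix-loop-helix factors read, which is the same pattern on both strands. The windows are chr12:105159454-105159753 on the plus strand for Tcl1b1, chr12:105190795-105191094 plus for Tcl1b3, chr12:105202145-105202444 plus for Tcl1b4 and chr12:105222688-105222987 minus for Tcl1.
Tcl1b1: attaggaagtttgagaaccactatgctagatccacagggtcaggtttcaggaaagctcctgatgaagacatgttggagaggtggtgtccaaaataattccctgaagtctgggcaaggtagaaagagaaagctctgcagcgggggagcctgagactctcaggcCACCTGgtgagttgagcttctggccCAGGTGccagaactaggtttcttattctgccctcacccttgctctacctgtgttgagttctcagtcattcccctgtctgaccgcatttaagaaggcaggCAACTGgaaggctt
Tcl1b3: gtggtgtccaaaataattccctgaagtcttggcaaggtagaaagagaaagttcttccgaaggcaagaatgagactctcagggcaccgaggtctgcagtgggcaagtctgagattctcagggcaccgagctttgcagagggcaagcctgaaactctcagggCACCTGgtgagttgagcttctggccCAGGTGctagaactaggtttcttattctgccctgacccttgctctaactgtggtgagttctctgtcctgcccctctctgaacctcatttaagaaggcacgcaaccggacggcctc
Tcl1b4: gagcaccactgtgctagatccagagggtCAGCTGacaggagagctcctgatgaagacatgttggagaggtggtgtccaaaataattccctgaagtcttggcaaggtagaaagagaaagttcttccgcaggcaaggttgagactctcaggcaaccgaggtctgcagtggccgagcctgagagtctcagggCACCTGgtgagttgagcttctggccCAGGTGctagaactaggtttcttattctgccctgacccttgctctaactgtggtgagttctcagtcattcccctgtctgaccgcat
Tcl1: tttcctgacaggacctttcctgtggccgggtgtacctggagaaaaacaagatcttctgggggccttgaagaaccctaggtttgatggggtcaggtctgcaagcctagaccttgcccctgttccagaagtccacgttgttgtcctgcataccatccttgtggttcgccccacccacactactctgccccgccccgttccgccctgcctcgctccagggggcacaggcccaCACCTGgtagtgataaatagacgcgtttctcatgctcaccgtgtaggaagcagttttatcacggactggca

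Counted from the annotated start as 0, the first base of an E-box lay at -88, -63 and 36 in Tcl1b1, at -90 and -65 in Tcl1b3, at -222, -61 and -36 in Tcl1b4 and at -21 in Tcl1. The 3 Tcl1b promoters thus each hold 2 E-boxes 25 bases apart, the spacing noticed in these sequences and then counted elsewhere. Such a pair stood in 232 of 32851 RefSeq promoters of this length, or 0.706%. Among the promoters of the 256 of the 300 genes that could be matched, it stood in these 3 only. That is 0.855% of 351 windows, near the share of all promoters. The 3 windows share sequence, with 64.1% to 71.7% identical bases between them, so they are not separate occurrences. Tcl1 was 47.2% to 48.9% identical to them, over a global alignment.

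A promoter was matched for 256 of the 300 genes, with 351 windows in all. An E-box stood in 65.2% of them, in 96.7% of the 30 windows of 24 oocyte-class genes, in 62.3% of those of the other classes and in 72.3% of all RefSeq promoters of the same length. The windows of the oocyte class also had a lower median GC content, 49%, than those of the other classes, 63%, and a lower ratio of observed to expected CpG, 0.194 against 0.818. A motif as short as CANNTG depends on base composition, and neighbouring family members share sequence, so these shares are descriptions. TATAAA was found in 5.98% of the windows of the 300 genes and in 8.32% of all.

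Secreted products of the oocyte included growth factors and a protease but no zona protein. Gdf9, a growth factor that the oocyte sends to its granulosa cells, gave 6031, 7095 and 6343, and its relative Bmp15 gave 5783, 3029.9 and 2872. Plat, tissue plasminogen activator, whose mRNA is a classical case of polyadenylation at maturation, gave 6579, 5870.4 and 7025. None of the 3 zona pellucida genes, which encode the egg coat, was among the 300. Zp3 stood at rank 722 with 2045, 2783 and 1118, and Zp2 and Zp1 followed at ranks 908 and 1016. Array MII 3 was the lowest for all 3. Of the 16 genes of the list of zona, growth-factor and secreted oocyte genes, 7 were among the 300 at MII, against 8 of the 300 brightest at GV and 10 at MI.

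The subcortical maternal complex is a set of proteins under the egg surface that the early embryo needs. Of 20 genes of this complex and other maternal-effect genes, 9 were among the 300, against 12 at each earlier stage. Zbed3, a partner of the complex, gave 7044, 9288 and 10632. Dppa3, which protects maternal DNA methylation in the zygote, gave 7056, 8215 and 7571. Ooep gave 3794, 3268 and 4293 and Nlrp5 gave 3819, 4637 and 2465, both structural members of the complex. Nlrp5 was lower on array MII 3 than on the other arrays. Zar1, an mRNA-binding protein of the oocyte, gave 3491, 3887 and 2797. The oocyte marker gene Padi6 was outside the 300, at rank 1314 with 1042, 1773 and 1011.

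Among other germ-line families 4 of 10 Nlrp genes were included, Nlrp4f, Nlrp5, Nlrp4a and Nlrp9b, with means of 3540.3 to 4059. Of 10 Fbxw genes of the oocyte-specific F-box type, Fbxw24, Fbxw14 and Fbxw22 were included and Fbxw13 was far below at 122, 89.5 and 125. Rfpl4, a RING-finger-like gene of the oocyte, measured 8238, 8904 and 9788. Oog3 measured 7112, 6690.01 and 6630.4, and Tex19.1, which restrains retrotransposons in germ cells, measured 5804, 6118 and 5331. Beside Obox2, Obox5 measured 6415, 5903 and 6265, whereas Obox3 and Obox6 had means of 47.4 and 6.21. Many of these families have near-identical copies. The probe sets of Obox2, Tcl1b1 and Tcl1b3 are of the _x_at type and that of Oog3 of the _s_at type, whose probes can bind other transcripts too, so the signal of such genes cannot be assigned to 1 copy with certainty. Among the 300 genes 35 used an _s_at and 35 an _x_at probe set, together 23.3%, against 11.1% of the one-symbol probe sets.

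Genes that control mRNA in the cytoplasm made up 25 of the 300. Beside Btg4, 3 of 10 Cnot genes of the CCR4-NOT deadenylase, which shortens poly(A) tails, were present. Cnot7, a catalytic subunit, gave 4238, 3716 and 3610.3, and Cnot6l, another, gave 4293, 3669 and 3504. Cnot8, the close relative of Cnot7, gave 3303, 2821 and 4659. The subunit gene Cnot10 was near background at 28.6, 31.9 and 10.3. The family thus ranged from well inside the 300 to the level of the array median. Dcp1a, an activator of decapping, measured 6327, 4194 and 6049. Upf1, the helicase of nonsense-mediated decay, measured 5848, 5296 and 5889. The list of regulators of translation, polyadenylation and stability had 11 of 54 genes among the 300 at MII, 5 among the first 300 at GV and 3 at MI. Among the 11, Tent4a gave 2251, 2430 and 8469 and Lsm14a gave 2799, 2498 and 7578. Both genes owe their rank to array MII 3.

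Slbp, which binds the stem-loop of histone mRNAs and lets them be translated, measured 7512, 7573 and 7889. A second Slbp probe set had a mean of 6.03, so the gene rests on 1 probe set. The RNA helicase gene Ddx3x measured 5893, 7238 and 6019, Lsm14b, an RNA-granule protein of the oocyte, 5370.2, 4647 and 5636, and Paip1, a partner of the poly(A)-binding protein, 5284, 4030.2 and 4665. In these 4 genes no array exceeded another by more than 1.5 times.

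Of the translation machinery itself initiation factors were represented and the ribosomal proteins measured were not. Eif4a1, the cap-complex helicase, gave 5144, 5579 and 5493, Eif3i gave 4397, 4621 and 3198, and Eif4e, the cap-binding protein, gave 3699, 4238 and 4025. In all, 6 of 62 genes on the list of initiation and elongation factors were members, among them Eef2k, a kinase gene and not itself a factor. None of 50 cytosolic ribosomal protein genes with a one-symbol probe set was among the 300, beside 1.65% of all genes. Of these 50 genes, 20 were among the first 300 at GV and 16 at MI. The brightest at MII was Rpl35, at rank 410 with 6157, 1357 and 503, so that MII 1 was more than 10 times MII 3. Rps29, at rank 1309, measured 2154, 1504 and 184, again lowest on MII 3. The median ribosomal protein gene had an MII mean of 313.

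Cell-division genes numbered 18, with securin first. Pttg1, securin, which holds separase inactive until anaphase, gave 7115, 8584 and 9644. Ccndbp1, a cyclin D binding protein, gave 6718, 6974 and 8962. Bod1, which orients chromosomes on the spindle, gave 5768, 6981 and 7484, and Cks2, the small subunit that binds cyclin-dependent kinase, gave 6487, 5564 and 8031. Array MII 3 was the highest for all 4 genes. The spindle checkpoint kinase gene Bub1b measured 4934, 4801 and 8167, Mad2l1, also of the checkpoint, 3540.4, 4739.6 and 3846, and Cdc20, the activator that the checkpoint holds back, 4116, 5279 and 5412. Cdc27, a subunit of the anaphase-promoting complex, measured 4787, 3142 and 3720.2. Aurora kinase C, the germ-line Aurora, gave 5999.98, 4756 and 6106 and its passenger-complex partner Cdca8 gave 5418, 6465 and 4449. Kif23 and Prc1, which bundle the microtubules of the midzone, had means of 4656 ± 760.1 and 3664 ± 706, and Cep55, of the cytokinetic bridge, 3418 ± 289.7. These genes cover the checkpoint, the anaphase trigger and the division of the cell. Of 57 M-phase genes on the list 10 were among the 300, against 7 at GV and 8 at MI, and of 65 spindle, kinetochore and tubulin genes 5, against 9 at both earlier stages.

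DNA replication and repair genes numbered 10, and the list of 59 had 6 members, against 1 at GV and 2 at MI. At MI Dut, Rrm2 and Pcna were just outside the first 300, at ranks 309, 317 and 345. Trp53bp1, which marks double-strand breaks, gave 8139, 7523 and 8209. Hpf1, which directs PARP enzymes to serine, gave 7698, 7910.2 and 7746 and had the smallest spread of all 300 genes, a coefficient of variation of 1.43%. Dut, which removes dUTP, gave 4549, 4606 and 4933. The arrays were close together for all 3 genes. The ribonucleotide reductase genes Rrm2 and Rrm2b measured 4139, 2963 and 6023 and 4545, 3805 and 3859. Chek1, a kinase of the replication checkpoint, measured 5008, 3870.4 and 4866, and the sliding clamp gene Pcna 3526, 4326 and 3866. Rrm2 varied the most of these, with MII 3 the highest. Orc6, of the origin recognition complex, gave 3519.99, 3127 and 3433, and Mcm4, of the replicative helicase, 2673, 4971 and 1918. For Mcm4 only array MII 2 was above the rank-300 mean of 3174.

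Chromatin and transcription genes were the most numerous class, and 3 of the 37 were among the first 30. H1f8, the linker histone of the oocyte, gave 6449.8, 7652 and 7621. Sub1, a cofactor of transcription, gave 7098, 8622 and 6665, while its second probe set had a mean of 23.9. Ezhip, an inhibitor of the Polycomb methyltransferase, gave 6237, 6766 and 7369.9. Rbbp7 and its relative Rbbp4 belong to several histone-modifying complexes, and Sap30 belongs to the Sin3 deacetylase complex. Rbbp4 measured 5106, 4280.4 and 3576 and Sap30 4561, 6299 and 3636. The pluripotency factor gene Sall4 measured 5320.1, 5365 and 6425 and Yap1, the effector of the Hippo pathway, 5426, 4861 and 5216. Hirip3, a partner of the HIRA histone chaperone, gave 3752, 4304 and 5048. Dnmt1, the maintenance DNA methyltransferase, gave 3268, 3289.6 and 3107, close to the lower end of the 300. Of 20 histones, variants and chaperones 3 were members, and of 43 chromatin modifiers 3, or 5 with the mean of all probe sets for a gene.

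Splicing and nuclear RNA genes numbered 19, and the list had 10 of 75 genes among the 300 at MII and 4 at each earlier stage. With the mean of all probe sets for a gene, 6 of the 75 were among the 300 at MII. Snrpg, a core protein of spliceosomal particles, gave 6402, 7511 and 10843 on a probe set that other transcripts may share. Snrpd3, another core protein, gave 2761, 3994 and 7685. Sf3b1, which recognises the branch point, gave 6453, 3658 and 3553. Snrpg and Snrpd3 were highest on array MII 3, and Sf3b1 on MII 1. The nucleolar chaperone gene Npm1 measured 5777, 7756 and 5505, Hnrnpab 6131, 8201 and 3143, and Wtap, of the methyladenosine-writing complex, 5266, 5620.1 and 4273. Nuclear pore and transport genes included Nup62 at 5871, 5715 and 5151 and the mRNA export factor gene Gle1 at 5232, 5199.7 and 5348.

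Ubiquitin and degradation genes numbered 26, with none in the first 30 and 9 in the first 100. Ube2d3, a general ubiquitin-conjugating enzyme, gave 6453, 6908 and 6765. Dtx2, a ubiquitin ligase of the Notch pathway, gave 5474, 5979 and 8514. Cul1, the scaffold of SCF ligases, gave 5393, 5237 and 6977, and Skp1, the adaptor that joins it to F-box proteins, gave 4835, 4909 and 2977. Psma2, of the proteasome core, measured 5691, 5897 and 5927. Dtx2 and Cul1 were highest and Skp1 was lowest on array MII 3. Kbtbd8, Trim61 and Usp9x, a deubiquitinase, had means of 5502 ± 288, 5078 ± 439 and 4747 ± 499.6. Of 217 genes on the list 12 were members, against 15 at GV and 18 at MI.

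Metabolic genes numbered 27, and 13 of them were also among the first 300 at GV. Degs1, an enzyme of ceramide synthesis, gave 7042, 5115 and 6436. Hmgcs1, of the sterol pathway, gave 5917, 5341 and 7086, and Oaz1, which limits polyamine synthesis, gave 5938, 5096 and 6698. Ldhb, a lactate dehydrogenase subunit, gave 5461, 6283 and 3224. Degs1, Hmgcs1 and Oaz1 were lowest on array MII 2, and Ldhb on MII 3. Sod1, the cytosolic superoxide dismutase, gave 6294, 5158 and 2297, the only 1 of 42 antioxidant and redox genes among the 300. None of 90 listed oxidative phosphorylation genes was among the 300, beside 1.65% of all genes, against 20 at GV and 20 at MI. The brightest were Sdha at rank 361 with 3597, 2622 and 2419 and Cox7a2 at rank 406 with 7092, 572 and 414. The value of Cox7a2 on array MII 1 was more than 10 times those on the other arrays. The mitochondrial gene ND5, which is not on that list, had 4747, 4932 and 5749 and is translated by mitochondrial ribosomes. Cs, Mdh1 and Ldhb made up the 3 of 36 glycolysis and tricarboxylic-acid-cycle genes. Cs gave 2743, 1958 and 9929, so its place among the 300 rests on array MII 3.

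The secretory and membrane-traffic class had 21 genes and the highest median coefficient of variation, 20.7%. Tbc1d15, a regulator of Rab7, gave 7789.8, 6771 and 7677. The membrane-binding annexin gene Anxa7 gave 5539, 5219.5 and 7714, Tmed9, a cargo receptor, 5781, 6351 and 4483, and Ssr3, of the translocon, 4861, 4072 and 3694. Anxa7 was highest and Tmed9 lowest on array MII 3. Signalling genes numbered 25. Bcl2l10, a Bcl2 relative of the oocyte, gave 8825, 8768 and 9221, the 14-3-3 genes Ywhae and Ywhaz gave 8143, 8956 and 6695 and 4599, 4041 and 3904, and Ppp2r1a, the scaffold of PP2A, gave 9327, 4342 and 6214. Ppp2r1a was more than 2 times as high on MII 1 as on MII 2.

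Cytoskeletal and cell-surface genes numbered 22. Tubb3, a beta-tubulin, gave 6022, 5750.2 and 7484, Ctnnb1, beta-catenin, 6472, 6287 and 5361, and the laminin subunit gene Lamb1 4302, 6721 and 5299. Fmn2 and Spire1 nucleate the actin that moves the meiotic spindle. Fmn2 gave 4649.5, 4149 and 3808 and Spire1 2977, 3713 and 3204. The list of 36 actin and polarity genes had 3 members. Protein-folding genes included Ern1, a sensor of unfolded protein, at 6091, 7387 and 7337, and the J-protein gene Dnajb4 at 6196, 4972 and 5204. Among genes outside the classes were Accsl at 8239, 7950.2 and 9004 and Smim14 at 6575, 6104 and 9151. The other unassigned genes included many predicted or unnamed transcripts.

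Fertilisation genes formed another list without a member, beside those of ribosomal proteins and oxidative phosphorylation. The brightest of 26 was the zinc importer gene Slc39a10, at rank 310 with 4576, 2068 and 2723, just outside the 300. Wee2, a kinase needed to leave MII, stood at rank 370 with 2968, 2887 and 2620.1, and Astl, the ovastacin gene that cleaves ZP2 after fertilisation, at rank 522 with 2469, 2479.9 and 2061. At GV 3 genes of this list and at MI 2 were among the first 300, and at MII 3 were when the mean of all probe sets stood for a gene. In all, 106 of the 300 genes were on at least 1 of the 20 lists.

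**Figure D3:**
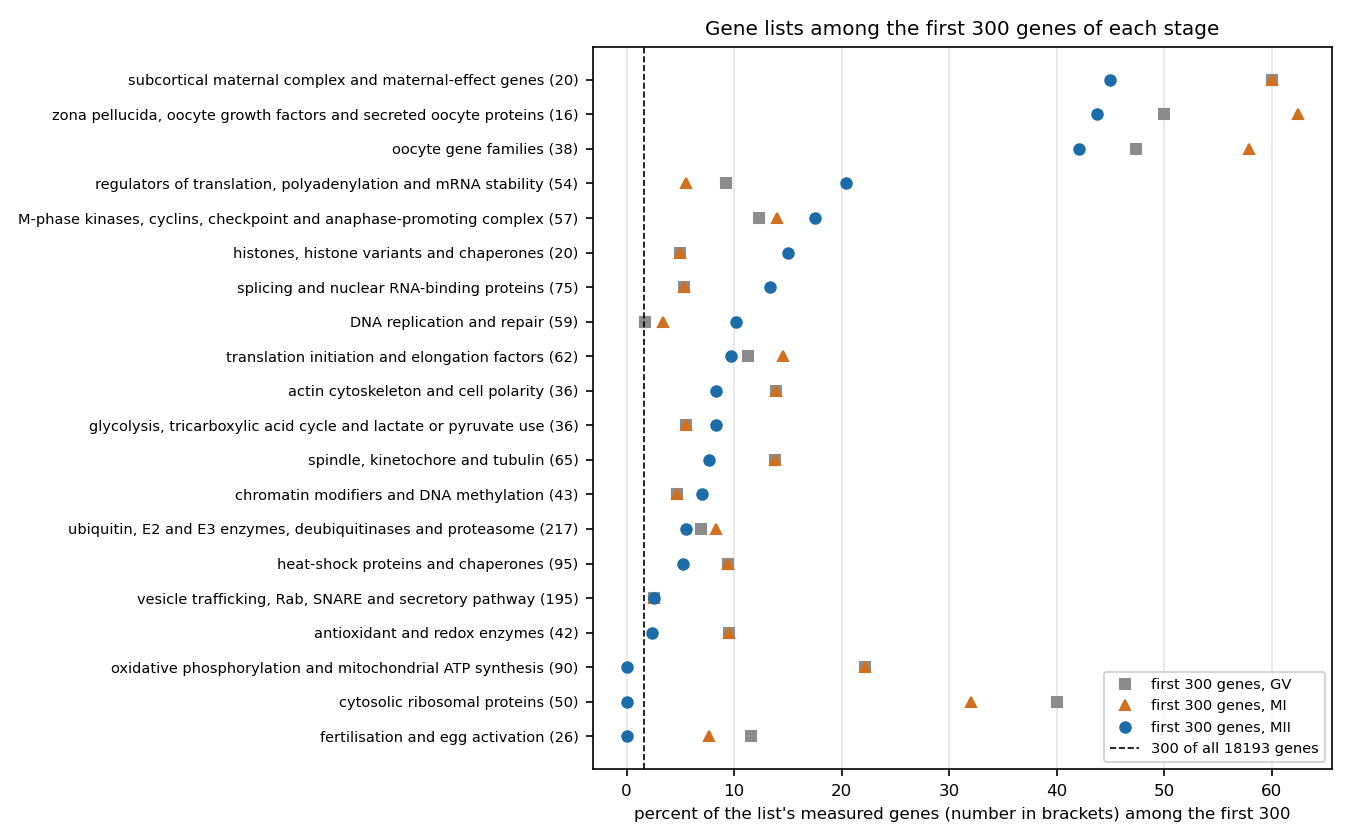
Percent of the measured genes of each of 20 gene lists that were among the first 300 genes at GV, MI and MII, with the number measured in brackets. A dashed line marks the share of 300 in all genes, 1.65%. Ribosomal protein, oxidative phosphorylation and fertilisation lists are at 0 at MII. Translation regulators have more members at MII, 11 of 54, than at GV, 5, and Tent4a and Lsm14a among the 11 rest on array MII 3.

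The 3 MII arrays were more alike in the first ranks than in the last. Of the 300 genes, 180 were in the first 300 of each array ranked alone, 82 of 2 arrays and 38 of 1 array, and 293, 294 and 300 were within the first 1000 on MII 1, 2 and 3. The coefficient of variation had a median of 13.7% over the 300 genes, 8.21% over the first 30 and 16.9% over the last 100, and it exceeded 20% in 86 genes and 50% in 17. Spearman's correlation between arrays across the 300 genes was 0.68 for MII 1 and 2, 0.49 for MII 1 and 3 and 0.42 for MII 2 and 3. Across all genes it was 0.82 to 0.86. The 300 genes were cut to a 3.43-fold span of means, which lowers a rank correlation, so the values cannot be compared with those of all genes. Genes on 1 array share its sample and hybridisation, so these correlations are descriptions.

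**Figure D4:**
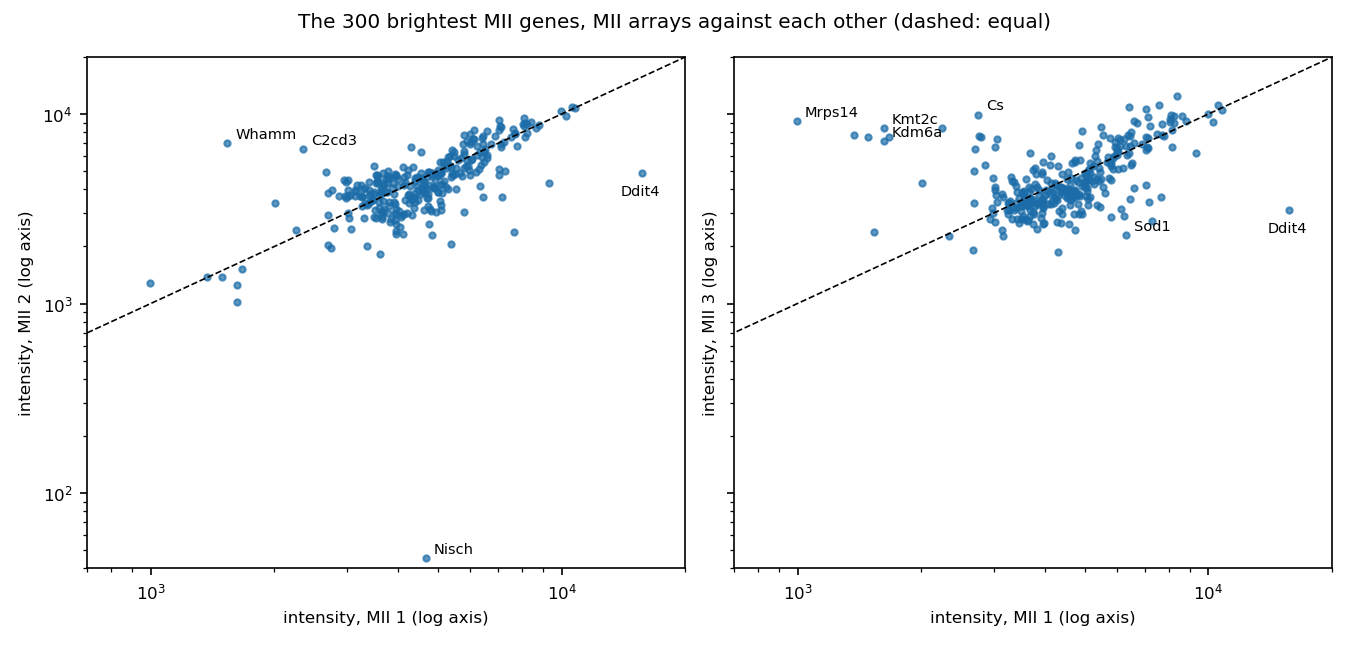
Intensities of the 300 genes on array MII 2 (left) and MII 3 (right) against MII 1, 1 point per gene, on log axes with a dashed line of equal values. Mrps14, Kmt2c and Kdm6a lie well above the line on the right, Nisch lies far below it on the left, and Ddit4 is highest on MII 1.

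In 35 genes the highest array exceeded the lowest more than 2-fold, with MII 3 the highest in 20, MII 1 in 10 and MII 2 in 5. A value above 2 times both others occurred on MII 3 in 11 genes and on MII 1 and MII 2 in 2 each. The most variable gene was Mrps14, a mitochondrial ribosomal protein gene, with 996, 1290.3 and 9147 and a coefficient of variation of 121%. Kmt2c, a histone methyltransferase gene, gave 1622, 1247 and 8423, Nmd3, an export adaptor of the large ribosomal subunit, 1372, 1378 and 7757, and the transcriptional regulator gene Ski 1487, 1383 and 7603. Kdm6a, a histone demethylase gene, gave 1619, 1021 and 7184. All 5 genes owe their rank to array MII 3. Nisch was low on 1 array, with 4671, 45.3 and 5523, near background on MII 2. At the other end Hpf1, Gle1, Spin1, R3hdm4 and Man2c1os had the smallest spread, with Gle1 at 5232, 5199.7 and 5348 and R3hdm4 at 5083, 4864 and 4978.

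Different probe sets of the same gene did not always agree. Of the 300 genes 214, or 71.3%, had more than 1 one-symbol probe set, against 49.5% of all genes, and choosing the brightest favours genes with more of them. The next probe set had a median of 60.6% of the brightest one's mean. It was itself above the rank-300 value in 66 genes and was under 10% of the brightest one's mean in 25. Slbp, Sub1, Plat and Aurka were among the latter, and Aurka, another Aurora kinase gene, rested on a probe set at 3276, 3695 and 3384 with its next at 23.0. With the mean of all probe sets of a gene in place of the brightest, 211 of the 300 genes were chosen again.

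Several bright genes are neighbours. In the RefSeq gene order 11 pairs of the 300 genes, with 21 genes in all, were adjacent. They included Tcl1b3 with Tcl1b4 and Tcl1b4 with Tcl1 on chromosome 12, Omt2a with Omt2b on chromosome 9, and Oosp1 with Oosp3 on chromosome 19. Pairs of genes of unlike function were Birc3 with Yap1 on chromosome 9, Usp9x with Ddx3x on the X chromosome, and Tubgcp4 with Trp53bp1 on chromosome 2. No test of this number was made.

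The egg's list was compared with the same ranking at the earlier stages. Of the 300 genes 88, or 29.3%, were among the first 300 at GV, where the last place stood at 3614, and 116, or 38.7%, among the first 300 at MI, where it stood at 3525. Both lists held 78 of them and neither held 174. Within the first 1000 at GV were 204 of the 300. The median member had rank 625.5 at GV and 414 at MI. Of the first 30 genes at MII, 18 were among the first 300 at GV. By class, 16 of 29 oocyte genes and 13 of 27 metabolic genes were on the GV list, against 1 of 10 replication genes and 3 of 19 splicing genes.

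Levels of the 300 genes at GV and MII were then set side by side, although the MII values chose the genes and so favour higher values at MII. The tests used limma on log2(intensity + 16) over all 9 arrays with Benjamini-Hochberg adjustment over 18193 genes. At MII 132 of the 300 were higher than at GV, beside 5.69% of all genes, and 9 were lower, beside 7.39% of all genes. The median change was 0.96 on the log2 scale, against 0.03 for all genes. In 203 genes all MII arrays were above all GV arrays, beside 15.5% of all genes, and in 17 all were below, beside 14.9%. Against MI 51 were higher, beside 2.54% of all genes, and 7 lower, beside 5.47%, with a median change of 0.59. Because the choice of genes used the MII arrays, nothing is read from these shares. With a pseudocount of 1 in place of 16 the test called 66 higher and 0 lower against GV, and 8 and 0 against MI. After quantile normalization 4 were lower against GV, and 104 were higher and 4 lower against MI. Without MI arrays 1, 2 or 3 or MII arrays 1, 2 or 3 in turn, the 51 became 26, 20, 28, 19, 23 and 17, and the 7 lower became 2 to 4. Labels call the samples biological replicates, but nothing tells whether separate mice gave them, and the p-values measure the spread between these samples.

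**Figure D5:**
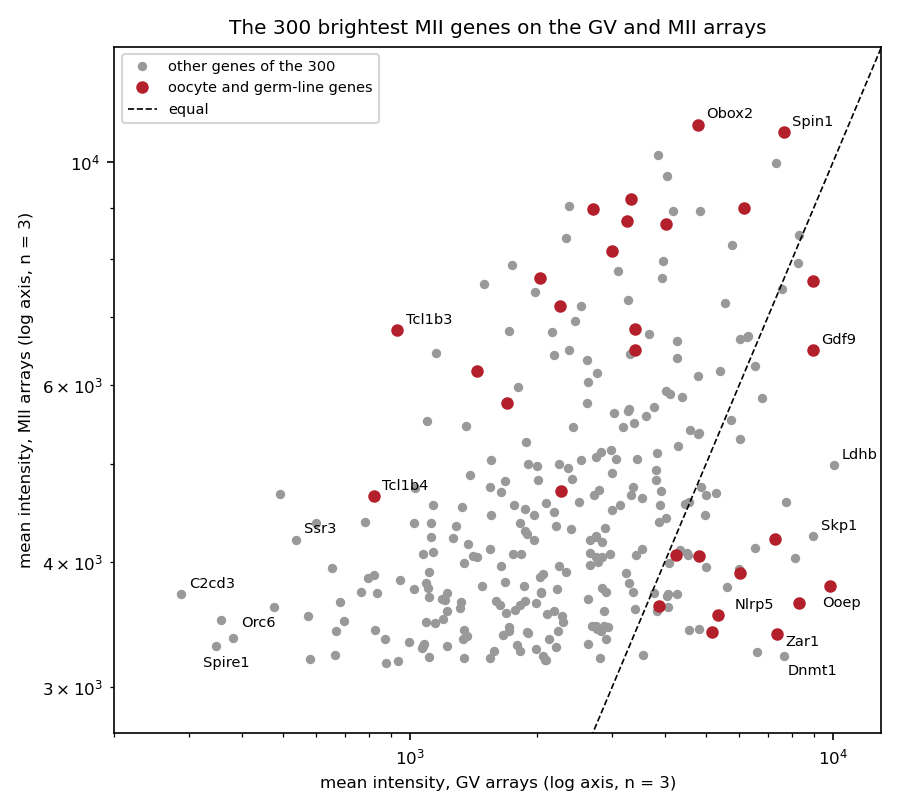
Mean intensity of the 300 genes at GV (horizontal) and MII (vertical) on log axes, with oocyte and germ-line genes in red and a dashed line of equal values. Ooep, Nlrp5 and Dnmt1 lie below the line, and Orc6, Spire1 and C2cd3 lie far above it, with GV means of 381, 347 and 288. C2cd3 owes its place among the 300 to array MII 2.

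Levels at GV show which of the egg's bright genes had been bright before maturation. As the genes were taken for high MII values, differences above GV are given as descriptions, with the SE of the fit and no test. Obox2 measured 5354, 4982 and 4056 on arrays GV 1, 2 and 3, a log2 difference to MII of 1.19 (SE 0.18). Spin1 measured 7885, 7989.8 and 7022 at GV (difference 0.49, SE 0.17). Every MII array was above every GV array for both genes. Btg4 measured 4912, 3637 and 2993 at GV (difference 1.43, SE 0.24). Pttg1 measured 7533, 8968 and 8416 at GV (difference 0.02, SE 0.21). The GV and MII arrays of Pttg1 overlapped.

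Of the Tcl1 family, Tcl1b3 measured 1071, 1058 and 668 at GV (difference to MII 2.87, SE 0.30), and Tcl1b4 measured 1065, 709 and 693 (difference 2.50, SE 0.23). Tcl1b1 differed by 1.70 and Tcl1 by 1.52 on the log2 scale. Of the Omt2 pair, Omt2a differed by 1.92 and Omt2b by 1.44.

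Of the 132 genes called higher at MII than at GV, the 10 with the largest difference were Ssr3, Spire1, C2cd3, Afap1l2, Orc6, Iqgap2, Tcl1b3, Hirip3, Nmd3 and Angel2, from 3.61 down to 2.70 on the log2 scale. The choice of genes by MII signal favours such differences. Spire1 measured 709, 225 and 107 at GV (difference 3.57, SE 0.66), and Orc6 measured 529, 399 and 217 (difference 3.17, SE 0.37). No GV array reached any MII array in these 2 genes. Iqgap2, a scaffold of the actin cortex, measured 777, 323 and 334 at GV, Hirip3 671, 445 and 683, and Angel2, a relative of the CCR4 deadenylase, 903, 368 and 449. The calls of Ssr3, Afap1l2 and Nmd3 were lost when single arrays were left out, Ssr3 without GV 3 or any MII array, Afap1l2 without GV 2, GV 3, MII 1 or MII 3, and Nmd3 without any GV array. Nmd3 was high on array MII 3 alone.

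The 9 genes that were lower at MII were all within the first 45 at GV. This follows largely from the choice, since a gene bright at MII can be lower only if it was brighter still at GV. The p-values below use the same MII values that chose the genes. Ooep measured 9461, 10146 and 9899.8 at GV (change -1.38 on the log2 scale, SE 0.18, limma adjusted p = 0.00334). Dnmt1 measured 7958, 8383 and 6579 at GV (change -1.23, SE 0.20, limma adjusted p = 0.00709), and Zar1 7027, 7188 and 7913 (change -1.13, SE 0.21, limma adjusted p = 0.012). For these 3 genes all GV arrays were above all MII arrays. By limma Nlrp5 changed by -1.23 (adjusted p = 0.0187), Skp1 by -1.11 (adjusted p = 0.025), Ldhb by -1.06 (adjusted p = 0.0489), Laptm4b, a lysosomal membrane protein gene, by -1.03 (adjusted p = 0.0425), Elobl by -1.03 (adjusted p = 0.0237) and Fbxw24 by -0.78 (adjusted p = 0.0326). The call of Nlrp5 was lost without GV 2 or GV 3, and those of the other 5 were lost without single arrays too. Without GV 1, GV 2, GV 3 and MII 3 in turn, 4, 3, 3 and 4 of the 300 genes were called lower.

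Calls by class are given beside the 44% higher and 3% lower of the 300 genes and the 5.69% and 7.39% of all genes, and nothing is read from them. Of 29 oocyte genes 14 were called higher at MII than at GV, 4 lower and 11 neither. Cell-division genes had 11 higher and 0 lower of 18, splicing genes 11 and 0 of 19, replication and repair genes 8 and 0 of 10, cytoplasmic mRNA control 10 and 0 of 25, and metabolic genes 5 and 1 of 27. Cnot7 measured 849.9, 707 and 824 at GV (difference to MII 2.26, SE 0.28) and Dcp1a 1372, 1086 and 835 (difference 2.32, SE 0.31). Eif4e differed by 1.59 with the probe set brightest at MII and turned sign with the one brightest over all 9 arrays, so no direction holds for it.

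The step from GV to MI compares no MII array, although the MII arrays chose the genes and their probe sets and entered the fit's estimate of the spread. No gene of the 300, and none of all genes, passed the test (0% of all genes higher and 0% lower, limma), and the smallest adjusted p among the 300 was 0.222. At an unadjusted p under 0.05, 57 of the 300 were higher at MI and 4 lower, beside 678 higher and 570 lower of all 18193 genes. The median difference of the 300 was 0.31 on the log2 scale, against 0.01 for all genes.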

How the data were processed

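Polysome-bound mRNA was purified on a column, copied into cDNA, amplified linearly by a kit for degraded RNA (WT-Ovation FFPE), fragmented and biotin-labelled, per the labels' protocols. The authors deposited 1 table of linear-scale intensities, with 45101 probe sets and 9 arrays. How probes were summarised, corrected for background and scaled is not given in the sources used here. Values were used as deposited, with no detection calls and 0 other per-sample columns. Of the probe sets, 64 were controls, 34945 had 1 gene symbol, 932 several and 9160 none in the platform annotation. The 34945 gave 18193 genes, of which 18032 were found in a RefSeq table of GRCm38.p6, with 0 symbols changed. The files name no genome build, and the coordinates printed are RefSeq's.

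Genes were ranked by the linear mean of the 3 MII arrays of their brightest one-symbol probe set. Stage contrasts used limma 3.58.1 (lmFit, then eBayes; R 4.3.3) on log2(intensity + 16), with all 9 arrays, no filter on low values and no block. Tests were two-sided, and the threshold was 0.05 after Benjamini-Hochberg adjustment over all 18193 genes. Such changes understate those of dim genes. The script was tested on simulated data. Promoters were searched with Python 3.11.15 and aligned with Biopython 1.88.

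The genes and lists were chosen with earlier results of these data known, and the classes were assigned after ranking. The named genes were the first 30, up to 6 brightest per list and class, 3 on either side of rank 300, the 10 largest rises and falls that passed, and the 5 most and 5 least variable. Predicted genes were counted. Other genes were named as examples of their class or family after their values were seen. Alternatives were other probe set rules, list lengths, pseudocounts, a filter, scalings, a trended prior, a replicate block and leaving out each array. Deviations of same-numbered samples from their stage means had correlations of 0.00279 to 0.243, all positive, and differently numbered samples were not compared. The numbers were not taken to pair the samples in the main fit, and whether they mark a shared batch was not tested.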

Additional observations from a re-analysis of the deposited data

How the results depend on the processing

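Of the 300 genes, 298 were chosen again with the probe set brightest over all 9 arrays, 211 with the mean of all probe sets of a gene, 289 with a mean on the log2 scale, 276 with the median of the 3 arrays and 297 after quantile normalization. Leaving out 1 MII array kept 275 to 277. With 100 genes per list in place of 300, 18% of the MII list was on the GV list, and without single arrays the overlap was 26% to 31.7% with GV and 36.7% to 41.7% with MI. The number of members of a gene list was within 1.5 times its value for 17 of 20 lists with the mean of all probe sets. For MII against GV, a pseudocount of 1 called 66 genes higher and 0 lower, leaving out the lowest 40% of genes called 4 lower, quantile normalization called 4 lower, and leaving out single arrays called 90 to 136 higher and 3 to 9 lower. For MII against MI, a pseudocount of 1 called 8 higher and 0 lower, the filter 30 and 2, quantile normalization 104 and 4, and scaling to the same 95th percentile 92 and 4. Single arrays left out gave 17 to 45 higher and 2 to 4 lower. The cause of these moves was not tested. MI against GV gave 0 calls among the 300 genes in each alternative run. Scaling to the 95th percentile moved the median change of all genes from 0.03 to 0.11 for MII against GV. With the replicate block the counts were 123 and 9 against GV, 43 and 5 against MI, and 0 and 0 for MI against GV. Of the calls of MII against GV, 59 of the 132 higher and 0 of the 9 lower were kept in all 17 alternatives, and Eif4e turned sign in 1. With 3 arrays per stage, no detection calls and unequal probe sets, small differences in rank, above all near rank 300, are within the spread between arrays.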

Other observations

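Probe sets without a single gene symbol were left out of the ranking. At or above the intensity of rank 300 on the MII arrays there were 22 probe sets with no symbol and 23 with several, and 3 of the latter were at or above that of rank 30. The brightest 2 without a symbol measured 7202, 6446 and 5757 and 5955, 6475 and 6925 on arrays MII 1, 2 and 3.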
